A study of Homo sapiens with 6 samples.

Results

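The 4 libraries described here were made by bulk ATAC-seq from fixed GM12878 cells, and the crosslinks of the transposed DNA were reversed in a buffer with SDS or in a buffer without SDS, with column purification of the DNA in both cases. GM12878 is a human lymphoblastoid line, made from B cells by Epstein-Barr virus. The libraries were chosen by their sample labels, 2 for each buffer, out of 6 bulk libraries, and their peaks merged into 51787 genomic regions. The other 2 libraries were made with the SDS-free buffer and amplified without purification, and they played no part in choosing the 51787 regions. The question of the comparison is whether the buffer changed which regions were called accessible and how strongly they ranked within a library, by class of gene, CpG content and distance from a transcription start site (TSS).

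By the sample labels all groups shared the cells, a fixation in 1% PFA, lysis with 0.05% Igepal, a transposition of 30 min, a quench with 40 mM EDTA and an overnight incubation at 65 °C with proteinase K. The methods of the study describe the SDS buffer as Tris, EDTA, NaCl and SDS added up to a large volume, and the new buffer as Tris with Tween and Igepal in a small volume. The methods also give the Igepal lysis and the EDTA quench, with removal of the supernatant, for the new buffer only, where the labels give 1 protocol for all libraries. SDS was therefore changed together with salt, EDTA, the other detergents and, by the methods, the volume and these earlier steps, and the effects of these cannot be told apart. The names used here are SDS buffer and SDS-free buffer, replicates 1 and 2. The labels do not say whether the replicates came from separate cultures, so the p-values below measure only the spread between these libraries, which may be technical.

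In ATAC-seq the Tn5 transposase cuts open DNA and leaves sequencing adapters, so fragments pile up at promoters, enhancers and insulators. In fixed cells these fragments stay crosslinked to protein until heat, proteinase K and detergent release them. Many human promoters of housekeeping genes lie in CpG islands, stretches of high GC content in which the dinucleotide CpG has not been lost, and enhancers far from genes are more often poor in CpG. SDS denatures protein and dissolves it, and Tween and Igepal are milder, nonionic detergents.

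The following stretches, 75 bp on each side of a centre, show the kinds of sequence on which the comparison turns. All are on the forward strand of the hg19 reference, with CpG dinucleotides in capitals, and each holds the summit of a region described further on. The first pair comes from regions called in both SDS-free libraries and in neither SDS library. The stretch at the start of FA2H holds 23 CpG, and it is centred 33 bp from the summit. The stretch in the gene desert beyond NUDT12 holds 1.
FA2H, chr16:74808730-74808880: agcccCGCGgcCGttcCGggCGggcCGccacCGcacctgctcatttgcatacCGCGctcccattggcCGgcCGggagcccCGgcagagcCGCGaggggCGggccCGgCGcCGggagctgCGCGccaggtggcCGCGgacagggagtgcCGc
NUDT12, chr5:103144225-103144375: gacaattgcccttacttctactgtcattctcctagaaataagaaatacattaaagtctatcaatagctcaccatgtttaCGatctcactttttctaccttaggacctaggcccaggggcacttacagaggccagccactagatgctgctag
The next pair comes from regions called in both SDS libraries and in neither SDS-free library. The stretch upstream of CHRNA1 holds 2 CpG. The intergenic stretch whose nearest protein-coding gene is ZNF33B, with a TSS 697432 bp away, holds 9 CpG. It is made largely of a satellite-like repeat, with the pentamer GGAAT present 7 times.
CHRNA1, chr2:175629569-175629719: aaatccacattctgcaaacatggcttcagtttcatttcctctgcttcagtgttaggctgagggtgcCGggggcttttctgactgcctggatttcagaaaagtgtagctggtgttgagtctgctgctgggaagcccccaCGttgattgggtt
ZNF33B, chr10:42392608-42392758: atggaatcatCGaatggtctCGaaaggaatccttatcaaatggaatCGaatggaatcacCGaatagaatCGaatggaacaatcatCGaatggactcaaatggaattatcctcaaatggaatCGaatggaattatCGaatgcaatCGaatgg
The last pair comes from promoters called in all 4 libraries. The INPPL1 promoter, with 13 CpG in this stretch, ranked higher with the SDS-free buffer, and the NRL promoter, with 3 CpG, ranked lower.
INPPL1, chr11:71934319-71934469: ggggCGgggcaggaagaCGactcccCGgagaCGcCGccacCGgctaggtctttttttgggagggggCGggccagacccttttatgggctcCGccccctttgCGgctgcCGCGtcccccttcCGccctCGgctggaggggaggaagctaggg
NRL, chr14:24564843-24564993: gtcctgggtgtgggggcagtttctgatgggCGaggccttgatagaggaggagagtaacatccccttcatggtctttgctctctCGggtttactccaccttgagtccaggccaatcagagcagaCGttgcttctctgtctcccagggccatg

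The deposited lists hold peaks, not reads, and list 37654 and 34826 peaks for the SDS libraries and 38023 and 30136 for the SDS-free libraries. The read pileup at each summit was solved from the deposited enrichment and p-value of each peak. Its median was 20 to 22 reads in the 4 libraries, the weakest peaks had 8 or 9 reads, and the lowest local background, which scales with depth, was 1.51 to 1.74 reads. A region at the weak end of a list therefore rests on few reads. Of 10 B cell marker genes, 3 had a promoter peak in all 4 libraries, and 4 to 8 had one in each. Among all protein-coding genes 46.1% had one in all 4. None of the 6 erythroid and none of the 5 epithelial marker genes had a promoter peak in any library, and of 8 T cell markers 1 was called in all 4. Of 5 myeloid markers 1 was called in SDS replicate 2 and SDS-free replicate 2, and of 5 fibroblast markers 1 was called in both SDS-free libraries.

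With the SDS-free buffer the peak lists were shifted toward DNA rich in GC. The median GC content of the window reaching 150 bp to each side of the summit was 46.8% and 47.2% in the SDS libraries and 47.8% and 49.5% in the SDS-free libraries, a difference of 1.66 percentage points (SDs 0.235 and 1.17, n = 2 each). Both SDS-free libraries lay above both SDS libraries. CpG-rich peaks, with at least 50% GC and an observed to expected CpG ratio of at least 0.6, made up 27.6% and 28.8% of the SDS lists and 28.8% and 34.0% of the SDS-free lists. The second SDS library and the first SDS-free library were nearly equal here. Without SDS-free replicate 2, which has the shortest list, the difference in this share fell from 3.22 to 0.635 percentage points, and the difference in median GC from 1.66 to 0.831. The exact two-sided permutation p was 0.333 for both differences (adjusted p = 0.533 over 8 comparisons), which is the smallest that this test can give with 2 libraries against 2, so no difference can pass a threshold of 0.05 in it.

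The length of the lists enters these shares, as the change in SDS replicate 1 from 27.6% to 30.8% shows. With the 30136 peaks of highest q significance taken from each library, the CpG-rich share was 30.8% in both SDS libraries and 32.9% and 34.0% in the SDS-free libraries. The unpurified libraries, at 33.3% and 33.7%, lay with the SDS-free pair. At equal number, the share at protein-coding promoters, meaning a summit within 1 kb of a protein-coding TSS, was 31.0% and 31.2% against 32.5% and 33.6%. Peaks in introns of coding genes made up 30.0% and 29.9% of the SDS lists and 29.2% and 28.3% of the SDS-free lists. Summits over 100 kb from any protein-coding TSS made up 23.1% and 22.3% against 21.3% in both SDS-free libraries. Of the 33 classes of gene, CpG, distance, GC and motif compared at equal number, 26 had both SDS-free values on one side of both SDS values (exact p = 0.333 each, adjusted p = 0.423), against 16 with all peaks. The classes divide the same peaks in several ways, so these counts are not of independent results.

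**Figure D1:**
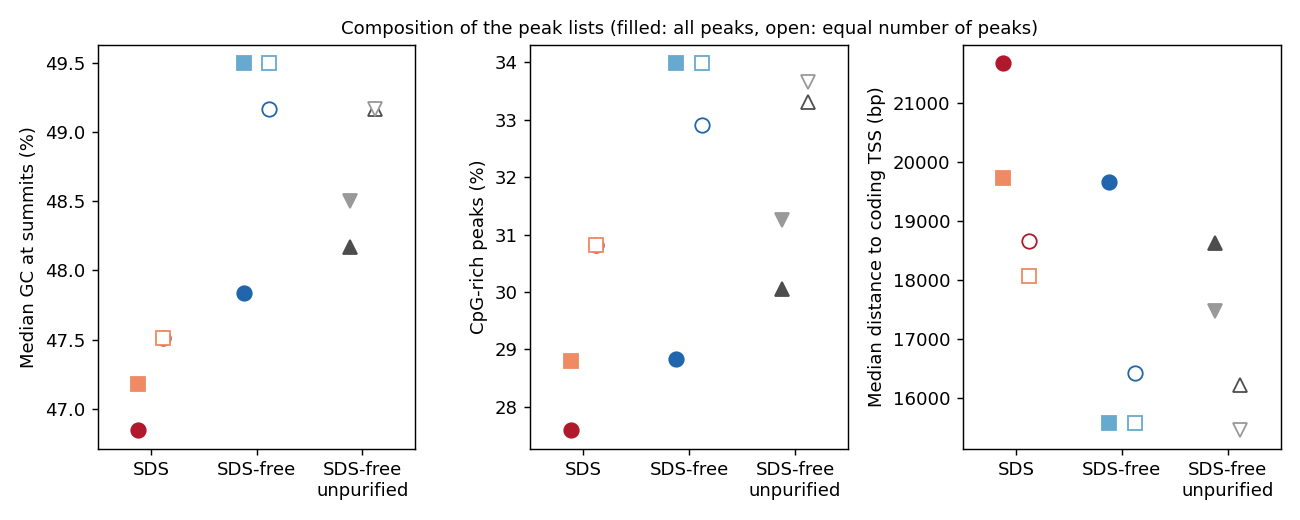
Median GC at summits (%), share of CpG-rich peaks (%) and median distance of summits to the nearest protein-coding TSS (bp) in each library, with filled symbols for all peaks and open symbols for 30136 peaks per library. At equal number the SDS libraries sit at 47.5% GC and 30.8% CpG-rich peaks, where their symbols coincide, below the SDS-free libraries in both panels and above them in distance.

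In the plot of list composition the open symbols of a buffer lie closer together than the filled ones. The median distance from a TSS was 18657 and 18067 bp in the SDS libraries at equal number and 16432 and 15587.5 bp in the SDS-free libraries. With all peaks the medians, 21669.5 and 19727 bp against 19665 and 15587.5 bp, nearly touch, and the share of summits over 10 kb away overlapped between the buffers at 60.1% and 58.9% against 59.1% and 55.2% (exact permutation p = 0.667). Promoters of lncRNA genes away from coding promoters made up 3.81% and 3.89% of the SDS lists and 4.01% and 4.12% of the SDS-free lists. This share was higher in both SDS-free libraries also without any one library.

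Without SDS, shared regions poor in GC ranked lower and shared regions rich in GC ranked higher. Ranks were compared in the regions that all 4 libraries called, where neither list length nor the presence of a call enters. Each of these 21568 regions was given its percentile rank by −log10 q within each library, from 0 for the weakest to 100 for the strongest. Regions with 35% to 40% GC had a median rank of 45.6 and 45.7 with the SDS buffer and of 36.9 and 36.2 without it, a fall of 9.14 rank points (2719 regions). Regions with over 75% GC had a median rank of 51.4 and 50.1 with the SDS buffer and of 58.7 and 61.9 without it, 9.56 points higher (1729 regions). Between these ends the difference passed through 0 near 50% GC. In the bin from 45% to 50% the libraries overlapped at 42.2 and 44.1 against 44.1 and 40.5. In each of the 4 bins below 45% both SDS-free libraries ranked lower than both SDS libraries, and in each of the 6 bins above 50% both ranked higher.

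**Figure D2:**
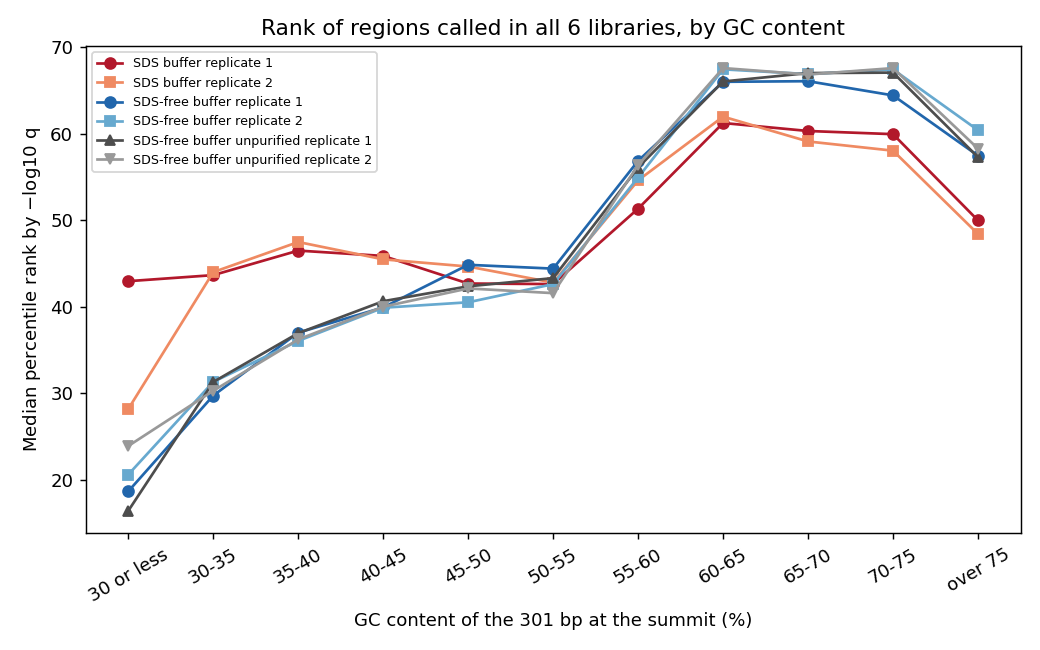
Median percentile rank by −log10 q against the GC content of the summit window (%), for the 20064 regions called in all 6 libraries, with 1 line per library. Below 50% GC the SDS libraries stay between 42.7 and 47.5 apart from 28.2 for replicate 2 in the first bin, which holds 25 regions, the SDS-free libraries climb from 18.7 and 20.6 there, and the lines of the unpurified libraries run with those of the SDS-free libraries.

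The plot of rank by GC content includes the unpurified libraries, whose regions were ranked again among the 20064 regions called in all 6. At 35% to 40% GC their medians were 37.0 and 36.2, beside 37.0 and 36.1 for the purified SDS-free libraries and 46.5 and 47.5 for the SDS libraries. Over 75% GC they were 57.3 and 58.3, beside 57.5 and 60.4, against 49.995 and 48.4. In both bins the unpurified libraries lay closer to the SDS-free than to the SDS medians. The Spearman correlation of rank with GC across these regions, given as a description over regions that share libraries, was 0.123 and 0.114 with the SDS buffer, 0.266 and 0.301 with the SDS-free buffer and 0.278 and 0.295 in the unpurified libraries. Between libraries the ranks correlated at 0.758 for the SDS replicates, 0.780 for the SDS-free replicates and 0.735 to 0.762 across the buffers among the purified libraries.

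By class of gene, coding and lncRNA promoters ranked higher without SDS, and most other classes ranked lower. Protein-coding promoters ranked at a median of 61.4 and 60.7 with the SDS buffer and 65.4 and 67.6 without it, 5.48 points higher (8351 regions). Promoters of lncRNA genes followed in the same direction at 50.8 and 49.3 against 54.0 and 52.4 (911 regions). Introns of coding genes ranked lower without SDS, at 42.0 and 43.2 against 39.3 and 37.3, and intergenic regions at 44.27 and 44.04 against 41.4 and 40.6. Exons of coding genes away from promoters overlapped between the buffers, at 37.9 and 41.9 against 36.7 and 41.0. Of the 56 classes of regions compared by rank, 49 did not overlap between the buffers (exact permutation p = 0.333 each, adjusted p = 0.381). These classes cut the same regions in several ways, and ranks that fall in some classes must rise in others. The count is therefore not one of independent results.

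CpG content divided both promoters and distal regions. The 7483 CpG-rich coding promoters had median ranks of 63.1 and 62.5 with the SDS buffer and 67.4 and 69.6 without it, 5.66 points higher (SDs 0.420 and 1.58, n = 2 each). The 868 coding promoters that were not CpG-rich had median ranks of 44.1 and 45.9 against 46.5 and 44.5, which overlap, and their difference of 0.504 lay within the spread of the replicates (exact permutation p = 0.667). Among regions over 10 kb from a TSS, the 681 CpG-rich ones ranked higher without SDS, at 50.4 and 47.9 against 56.0 and 53.3. The 5630 CpG-depleted ones, with an observed to expected ratio under 0.2, ranked lower, at 44.5 in both SDS libraries against 39.5 and 37.7. All regions over 10 kb away together fell by 3.87 points, from 44.4 and 44.7 to 41.3 and 40.0.

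Promoters and distal regions of the same GC content were then set side by side. At 60% to 65% GC, 1499 promoters ranked 4.61 points higher without SDS, at 66.5 and 66.7 against 70.2 and 72.2. The 278 distal regions of this GC content ranked 6.34 points higher, at 44.5 and 40.9 against 50.5 and 47.5. At 40% to 45% GC, the median rank of 3207 distal regions fell by 5.30 points without SDS, from 46.3 and 45.2 to 40.5 and 40.3. The 120 promoters in that bin overlapped between the buffers, at 40.3 and 45.2 against 42.3 and 39.7. The neighbouring bins did not all follow. At 55% to 60% GC the 856 promoters overlapped between the buffers, with means 0.886 points apart, while the 533 distal regions ranked 4.81 points higher without SDS. At 35% to 40% GC the 46 promoters ranked lower without SDS, at 42.0 and 36.0 against 21.8 and 33.7, as did the 2351 distal regions, at 46.2 and 46.1 against 37.3 and 37.0.

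Sequence motifs near the summits were counted as descriptions of the DNA, with both strands searched within 100 bp of the summit. The AP-1 letters TGANTCA, bound by FOS, JUN and BATF dimers that mark B cell enhancers, were found at 14.5% and 14.2% of SDS peaks and at 13.7% and 13.4% of SDS-free peaks. They occur in 3.75% of windows of the same length at 78564 protein-coding TSSs. The RUNX letters TGTGGTT were at 10.5% and 10.4% against 9.99% and 9.71% of peaks, and at 2.32% of TSS windows. The GC box GGGCGG, read by SP and KLF factors, moved the other way, at 22.95% and 23.7% against 24.1% and 27.8% of peaks, and occurs in 43.5% of TSS windows. The CTCF letters AGGGGGCGC, which share the run GGGCG with the GC box, were at 0.980% and 0.982% against 1.06% and 1.22%, and occur in 1.24% of TSS windows. For AP-1, RUNX, the GC box and CTCF the buffers did not overlap (exact permutation p = 0.333 each, adjusted p = 0.688). The letters of ETS factors (CCGGAAGT), the CCAAT box, the E-box CACGTG, the NRF1 letters GCGCATGC and the CRE letters TGACGTCA were also counted. With all peaks each of these overlapped between the buffers, and at equal number NRF1 and CRE still did.

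In the regions called in all 4 libraries, those with AP-1 letters ranked at a median of 47.5 and 48.7 with the SDS buffer and 44.6 and 42.5 without it. Regions with RUNX letters stood at 47.7 and 47.6 against 43.8 and 41.9. The motif could not be separated from base composition in these counts, so distal regions of 40% to 45% GC were taken alone. There the median rank of the 800 regions with AP-1 letters fell by 6.17 points without SDS, and that of the 2407 regions without them fell by 4.86 points. Regions with the CTCF letters ranked higher without SDS at 54.3 and 54.9 against 57.0 and 62.4 (245 regions), and so did those with the letters of ETS factors (CCGGAAGT), at 59.5 in both SDS libraries against 63.7 and 67.5 (646 regions). For the CCAAT box of NF-Y, at 57.1 and 57.6 against 57.03 and 56.5, the mean fell by 0.551 points.

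Few regions were called in both libraries of one buffer alone. Of the 51787 regions, 21568 were called in all 4 libraries, 958 (1.85%) in both SDS-free libraries and neither SDS library, and 1646 (3.18%) in both SDS libraries and neither SDS-free library. With the lists cut to an equal number of peaks these counts were 1168 and 1227, so most of the excess on the SDS side went with the length of the lists. These are called SDS-free-specific and SDS-specific below, and since they were chosen by their calls, what follows is a description of them with no test. A further 2744 regions were called in both SDS-free libraries and 1 SDS library, 4016 in both SDS libraries and 1 SDS-free library, 5080 in 1 library of each buffer, 7223 in 1 SDS-free library alone and 8552 in 1 SDS library alone. The 5080 fall on 4 possible pairs of libraries, while each specific set comes from 1 pair. Their mean per pair lies between the 2 specific counts. A pair of one buffer thus shared about as many regions of its own as a mixed pair. The specific regions were weak in both directions. The median summit pileup of SDS-free-specific regions was 15 and 14 reads in SDS-free replicates 1 and 2, and that of SDS-specific regions 16 and 15 reads in SDS replicates 1 and 2. Of the 958 SDS-free-specific regions 8 ranked above 50 in both of their libraries, and of the 1646 SDS-specific regions 45 did.

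**Figure D3:**
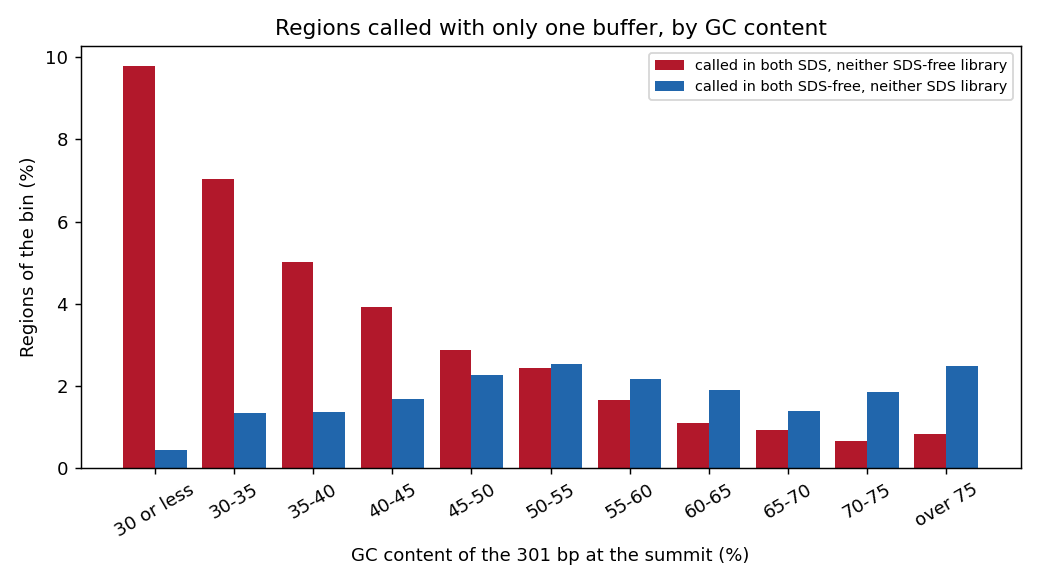
Share of the regions in each bin of GC content (% of the window at the summit) that were called in both libraries of one buffer and neither of the other. The SDS-specific share falls from 9.79% at 30% GC or less to 0.837% over 75% GC, and the SDS-free-specific share goes up and down, from 0.426% in the first bin to 2.52% at 50% to 55%, 1.38% at 65% to 70% and 2.47% in the last.

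The SDS-specific regions were on the whole poorer in GC than the SDS-free-specific ones, and many of both lay between 40% and 50% GC. The plot of specific regions by GC content shows 23 SDS-specific regions and 1 SDS-free-specific region among the 235 regions of 30% GC or less. From 30% to 35% GC there were 211 SDS-specific and 40 SDS-free-specific regions, out of 3002. Over 75% GC there were 22 SDS-specific and 65 SDS-free-specific regions, out of 2629. The median GC content was 41.4% in SDS-specific and 48.2% in SDS-free-specific regions, and CpG-rich sequence made up 5.65% and 22.1% of them. Protein-coding promoters were 116 (7.05%) of the SDS-specific and 189 (19.7%) of the SDS-free-specific regions. Among all 51787 regions 12105 were protein-coding promoters and 12008 were CpG-rich, so both kinds were scarce in the SDS-specific set, while in the SDS-free-specific set their shares lay a little under those of all regions. The median distance to a TSS was 47990.5 bp for SDS-specific and 24447.5 bp for SDS-free-specific regions, against 11232 bp for regions called in all 4 libraries. Among 20745 CpG-depleted regions 4.28% were SDS-specific and 1.63% SDS-free-specific, and among 12008 CpG-rich regions 0.774% and 1.77%.

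The unpurified libraries did not enter the choice of these regions. They called 51.8% and 47.5% of the SDS-free-specific regions and 44.1% and 38.2% of the SDS-specific regions. For regions called in 1 library of each buffer the shares were 48.3% and 43.1%, which lie between. Within each unpurified library the order was the same, with SDS-free-specific regions called most often of these sets and SDS-specific regions least. Both unpurified libraries called 279 of the 958 SDS-free-specific regions and 362 of the 1646 SDS-specific regions, which is 29.1% and 21.99%. Neither of them called 29.9% of the SDS-free-specific and 39.7% of the SDS-specific regions.

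**Figure D4:**
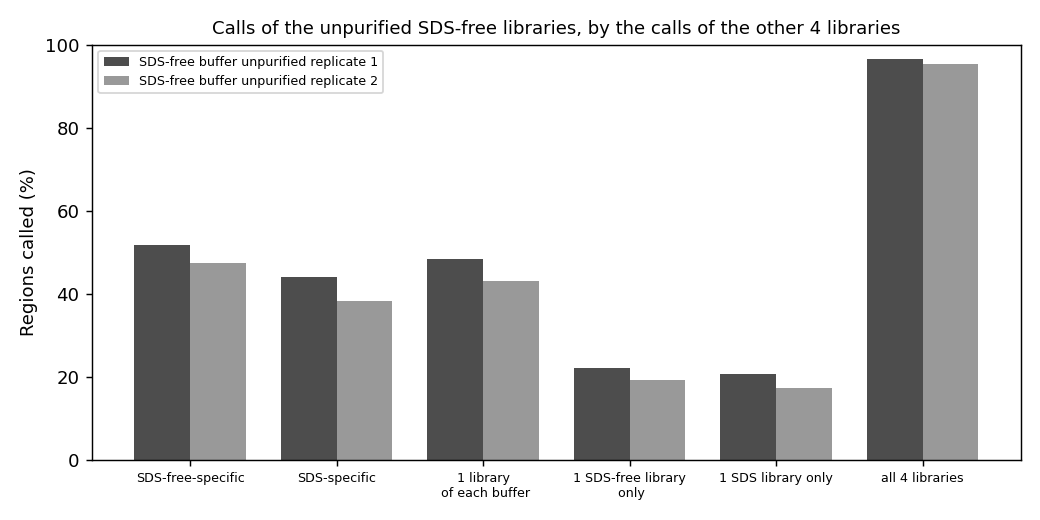
Share of regions (%) that each of the unpurified SDS-free libraries called, for regions grouped by the calls of the other 4 libraries. The bars of SDS-free-specific regions, 51.8% and 47.5%, stand above those of SDS-specific regions, 44.1% and 38.2%, and regions called in all 4 libraries reach 96.6% and 95.4%.

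The plot of calls in the unpurified libraries shows how close the specific sets lie to regions called in 1 library of each buffer, and how far from regions called in all 4. Regions called in a single library were called again least often, with 22.2% and 19.1% for 1 SDS-free library and 20.6% and 17.3% for 1 SDS library.

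The promoters named here are the 12 SDS-free-specific promoters whose lower rank of their 2 libraries was highest. Of these, 11 were CpG-rich, as were 7483 of the 8351 coding promoters called in all 4 libraries. Among the 12, 9 had over 65% GC, and their pileups were 15 to 32 reads. POLR2K, which encodes a small subunit shared by the nuclear RNA polymerases, led them with 25 and 20 reads in the SDS-free libraries, no peak in the SDS libraries, and 20 reads in the second unpurified library. FA2H, the fatty acid hydroxylase of sphingolipid synthesis, had 17 reads in each SDS-free library at chr16:74808468-74808950, a window of 78.4% GC, and the nearest SDS peak lay 38068 bp away. PLEKHO1, a pleckstrin homology domain protein, had 20 and 18 reads. MAPK3, which encodes the kinase ERK1, had 26 and 16 reads, with the next SDS peak 26642 bp away. None of these genes had an SDS peak at the promoter region, and each was called by 1 of the unpurified libraries.

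IGF1R, the receptor of insulin-like growth factor, had 26 and 27 reads with the SDS-free buffer and 30 and 25 in the unpurified libraries. Its region lay 782 bp upstream of the TSS and 244 bp from a peak called with the SDS buffer. The regions at LGALS8, which encodes a galectin, and LHX2, a LIM homeobox factor, lay 220 and 795 bp from SDS peaks, so at these 3 promoters the SDS libraries had a peak within 1 kb of the specific region. ST7 had 32 and 25 reads with the SDS-free buffer and 26 and 22 in the unpurified libraries, and RGS19, a regulator of G protein signalling that shares its promoter with OPRL1, had 28 and 19, then 15 and 19. At these 5 promoters both unpurified libraries had a peak. SLC48A1, a heme transporter, had 24 and 19 reads, the zinc finger gene ZNF875 had 16 and 15, and BBOX1, an enzyme of carnitine synthesis, had 20 and 18. The latter 3 had no peak in either unpurified library, and BBOX1, at 39.9% GC, was the member of the 12 that was not CpG-rich.

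The 12 SDS-specific promoters of highest rank had 14 to 25 reads, and 5 of them were CpG-rich. CHRNA1, the alpha subunit of the muscle acetylcholine receptor, had 20 and 19 reads with the SDS buffer at chr2:175629410-175629812, a window of 48.5% GC, no SDS-free peak within 11141 bp, and 19 reads in the first unpurified library. SLC2A5, the fructose transporter, had 23 and 16 reads, and 11 and 17 in the unpurified libraries. GTF2A1L, a germ cell relative of the general factor TFIIA, had 25 and 17 reads in a window of 33.6% GC and no unpurified peak. FRYL had 15 and 22 reads at 33.9% GC. CD59, an inhibitor of complement, had 15 and 14 reads. These 5 regions were not CpG-rich, and their pileups lay around or under the library medians of 20 to 22 reads.

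Among the CpG-rich members, the SDS-specific region at SNX1, a sorting nexin of the retromer, had 22 reads in each SDS library and 22 in the second unpurified library, and an SDS-free peak lay 1340 bp away. TUBGCP4, a component of the gamma-tubulin ring, had 16 and 18 reads, and RPS3, a protein of the small ribosomal subunit, had 17 and 15, with no peak in the SDS-free or unpurified libraries in either case. AREL1, a ubiquitin ligase, had 16 and 14. ZWILCH, a kinetochore protein whose start lies beside that of RPL4, had 16 and 15 reads, and an SDS-free peak lay 142 bp away. TMEM154, at 51.8% GC and not CpG-rich, had 15 and 19 reads. Of the 12, 4 were called in both unpurified libraries, 5 in 1 and 3 in neither, against 5, 4 and 3 for the SDS-free-specific promoters.

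**Figure D5:**
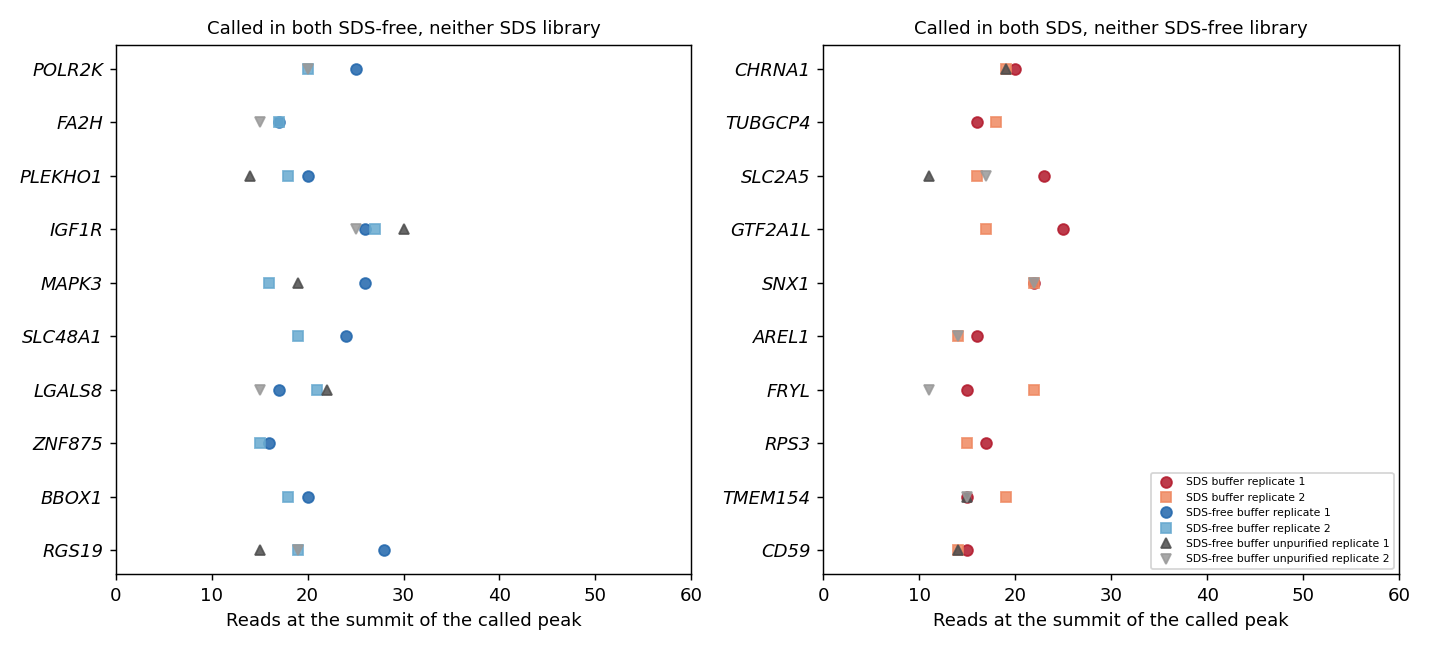
Reads at the summit of the called peak in each library for the 10 promoters of highest rank in each direction called in both libraries of one buffer and neither of the other. A missing symbol means that the library listed no peak there, and the called peaks of the 4 purified libraries lie between 14 and 28 reads.

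In the plot of reads at named promoters, the unpurified libraries show 11 to 30 reads where they called a peak. A promoter without a peak in a list has no value there, so the size of a change cannot be given for these genes. Over all 19794 protein-coding genes, 153 (0.773%) had a promoter peak in both SDS-free libraries and neither SDS library, 83 (0.419%) had the opposite pattern, and 9116 (46.1%) had one in all 4 libraries.

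Away from promoters, the strongest SDS-free-specific regions lay at 38.5% to 61.1% GC, and the strongest SDS-specific ones at 31.6% to 40.2%. The region 245810 bp upstream of NUDT12 had 22 and 19 reads in the SDS-free libraries and 12 reads in the first unpurified library. A region in an intron of ZFHX3, a homeobox transcription factor, had 17 reads in each SDS-free library and 13 and 15 in the unpurified ones, and a region 14810 bp from ANXA5 had 22 and 20, then 17 and 17. The other 2 were nearest to C5orf22, with 17 and 21 reads and no unpurified peak, and to SLC23A2, with 17 reads in each. In the other direction the region nearest to U2SURP, a splicing factor, had 25 and 22 reads with the SDS buffer, and 17 and 14 in the unpurified libraries. The region 2544447 bp from PCDH7, in a gene desert, had 25 and 21, then 20 and 31. The region nearest to SPCS3 had 25 and 21 reads and 24 in the first unpurified library.

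The satellite-like region nearest to ZNF33B had the highest pileup of the named specific regions, 71 and 68 reads in the SDS libraries, and no peak in the other 4 libraries. An SDS-free peak lay 782 bp from it. The region nearest to RP11-685N3.1, with 42 and 37 reads, lay 98 bp from an SDS-free peak and had 31 and 30 reads in the unpurified libraries. Of the 45 SDS-specific regions that ranked above 50 in both libraries, 39 lay over 10 kb from a TSS, 18 had at most 40% GC, 2 were mitochondria-like sequence, 6 lay within 1 kb of an SDS-free peak, and 28 were called by both unpurified libraries. More than 1 in 2 of these strong SDS-specific regions were thus called in both libraries that were made without SDS and without purification. The same held for 4 of the 8 SDS-free-specific regions above rank 50 in both libraries, and 1 of the 8 was called by neither. Among these 8, 1 was a coding promoter, 1 was CpG-rich and 7 lay over 10 kb from a TSS.

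Promoters called in all 4 libraries allow the size of a shift to be given. At 4043 (18.7%) of the 21568 shared regions both SDS-free ranks lay above both SDS ranks, and at 3860 (17.9%) both lay below. In random order, 2 libraries lie wholly above or wholly below the other 2 with a probability of 0.333. The 2 shares together lie near that value, so these totals alone do not show regions shifted by the buffer. By gene, with the strongest shared promoter region of each of 9067 protein-coding genes, 2358 (26.0%) lay above and 959 (10.6%) below. The shares by class are thus unequal though the totals are nearly level. Above lay 27.02% of CpG-rich promoters, 16.1% of the other promoters and 11.95% of CpG-depleted regions over 10 kb away. Below lay 9.93%, 14.98% and 26.7% of them.

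The promoters with the largest gaps between the ranks of the buffers are given as examples, chosen for that gap. AP1S3, an adaptor protein subunit of vesicle coats, had 31 and 27 reads with the SDS buffer, 57 and 46 with the SDS-free buffer, and 47 and 37 in the unpurified libraries. Its rank went from 28.1 and 31.3 to 83.4 and 82.8. INPPL1, the inositol phosphatase SHIP2, had 19 and 15 reads against 33 and 29, and 31 and 30 in the unpurified libraries. SDK1, a cell adhesion protein, had 18 and 17 against 32 and 31, with 34 and 31 in the unpurified libraries. ZNF701 had 20 and 17 against 35 and 28, and AMMECR1, on chromosome X, had 25 and 20 against 45 and 36. These 5 promoters had 64.1% to 79.4% GC, and the unpurified values lay above both SDS values in each.

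In the opposite direction NRL, named for a transcription factor of rod photoreceptors, had 38 and 35 reads with the SDS buffer and 24 and 22 without it, at 56.8% GC. Its rank went from 60.2 and 65.4 to 7.55 and 14.0. PTDSS2, an enzyme of phosphatidylserine synthesis, had 36 and 27 against 19 and 19, and no unpurified peak. NAA38, whose start is shared with CYB5D1, had 34 and 32 against 19 and 19, and ADCK5 had 34 and 25 against 16 and 19. The unpurified libraries were between the buffers at NRL, with 30 reads in each, and had 37 and 25 reads at ADCK5, close to the values with the SDS buffer. Of these 4 promoters 3 were CpG-rich, a class whose median rank was higher without SDS.

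Gene lists of known function are given by counts of their members. Lists of housekeeping genes, whose promoters lie in CpG islands, were called nearly throughout. Cytosolic ribosomal protein genes had a promoter peak in all 4 libraries for 44 of 51 members, proteasome genes for 25 of 30, RNA polymerase II and general transcription genes for 23 of 27, and DNA damage response genes for 14 of 15. In the ribosomal list, RPL12 was called with the SDS-free buffer alone, at 18 and 21 reads and 28 and 20 in the unpurified libraries, and RPS3 with the SDS buffer alone. Of the 44 ranked members 10 lay above and 4 below, and of 25 ranked proteasome genes 9 lay above and 1 below. Among 23 ranked RNA polymerase II and general transcription genes 2 lay above and 3 below, and among 14 ranked DNA damage response genes 3 and 1. PSMD4, a ubiquitin receptor of the proteasome, had 14 and 20 reads with the SDS buffer, no SDS-free peak, and 24 and 26 reads in the unpurified libraries. Of 25 ranked oxidative phosphorylation genes 4 lay above and 2 below, and NDUFB8 of complex I was called with the SDS-free buffer alone at 15 and 14 reads.

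Lists of B cell genes varied in how completely they were called, beside 46.1% of all protein-coding genes called in all 4 libraries. All 12 NF-kB subunits and feedback genes, which are active in this Epstein-Barr virus line, had a promoter peak in all 4 libraries. RELB, NFKBIA, NFKBIZ and CD40 lay above and none lay below. RELB ranked at 52.8 and 56.3 with the SDS buffer and 71.9 and 82.5 without it, and CD40, the receptor whose signal the viral protein LMP1 mimics, at 17.5 and 11.4 against 28.7 and 28.1. BIRC3, a feedback gene, was among the strongest with 99 and 94 reads against 120 and 89, which overlap. Of 16 B cell transcription factors 8 were called in all 4 libraries, and none of these lay above or below. Of 17 B cell receptor signalling genes 6 were called in all 4, of which 2 lay above and 2 below. SYK, a kinase of this pathway, was called with the SDS-free buffer alone, at 13 reads in each library and 24 and 15 in the unpurified ones, in a window of 76.4% GC. In the class II list, HLA-DQB1 was called with the SDS buffer alone at 14 and 16 reads, and this gene is polymorphic and has close paralogs, so its reads are uncertain. The fibroblast collagen gene COL1A2 also had an SDS-free-specific peak, of 15 and 13 reads, 870 bp from a start.

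These counts per list are read against the gene background of 26.0% above and 10.6% below, and the lists hold few genes. The shares of ribosomal and oxidative phosphorylation genes that lay above, 10 of 44 and 4 of 25, were close to or under the background. So were those of RNA polymerase II and DNA damage response genes, 2 of 23 and 3 of 14. Proteasome, NF-kB and B cell receptor signalling genes, at 9 of 25, 4 of 12 and 2 of 6, lay over it by few genes. Below lay 1, 0 and 2 of them, so the B cell receptor signalling list was level. None of 8 ranked B cell transcription factors and none of 4 ranked class II genes lay above. Shifts in the position and breadth of peaks were small. The median distance between the summits of a region in a pair of libraries was 58 bp for the SDS replicates, 59 bp for the SDS-free replicates and 55 to 61 bp across buffers. Promoter summits lay at a median of −40.5 and −42 bp from the TSS in the SDS libraries and −38 bp in both SDS-free libraries, where negative means upstream, so the buffers do not overlap but differ by a few bases. The median width of peaks at shared regions was 518 and 481 bp against 566 and 498.5 bp, which overlap (exact permutation p = 0.667).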

How the data were processed

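Peak lists of 4 bulk ATAC-seq libraries were compared, with 2 further libraries as outside values. Per the methods, the authors aligned trimmed reads to hg19 with Bowtie2 (version 2.1.0), discarded pairs of low mapping quality, PCR duplicates (Picard 1.79) and reads of mitochondrial DNA, and used MACS2 in its narrow mode with a q threshold of 0.01. Its version is not given in the sources used here. By the methods reads of a condition were merged before calling, yet each library has its own list. The deposited score, an integer form of the q significance, was not used. The authors' MACS2 output also holds a fold enrichment over local background (a ratio) and, for p and for q, the −log10 at the summit, as deposited. Depth is known only through summit pileups, solved within 0.001 for 100% of peaks.

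Overlapping peaks of the 4 libraries were merged, and a library called a region that a peak of its list overlapped. Peaks were ranked by −log10 q within a library. Genes came from GENCODE release 44, and sequence around the strongest summit from GRCh37. Each library gave 1 value to exact two-sided permutation tests, adjusted by Benjamini-Hochberg within families of 8, 33 or 56 comparisons. Named were the 12 specific promoters in each direction with the highest lower rank, 5 specific regions elsewhere, the 5 shared promoters with the largest gap of ranks, and list members whose calls separate the buffers, leaving out chromosome Y and mitochondria-like sequence (blastn 2.17.0). A shared promoter and a specific promoter that meet this rule are not reported here, though counts over the 12 include the latter. Regions, lists and classes were chosen with earlier results of these data known. Specific calls were tested on simulated data of 6000 regions for SDS-free against SDS buffer, where 400 of 400 planted regions were recovered. Each simulated library called every region except those planted for the other buffer. The recovery therefore checks only the counting of calls, and cannot show how reliable calls at weak regions are. The scripts ran under Python 3.11.15 with pandas 2.3.3, SciPy 1.17.1 and NumPy 2.4.6, and samtools was version 1.23.1. The alternatives were another window, promoter distance, ranking, merging or overlap rule, a stricter q, equal peak numbers, autosomes, each library left out, a replicate block and the unpurified libraries added.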

Additional observations from a re-analysis of the deposited data

How the results depend on the processing

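The 13 results were recomputed under 126 alternatives, and 108 kept their direction and, for counts and untested differences, their size. With a −log10 q of at least 5, the excess of CpG-rich sequence among SDS-free-specific over SDS-specific regions rose from 16.5 to 20.5 percentage points. With each library left out in turn, a specific region needed 1 call fewer in its own buffer or 1 absence fewer in the other. More regions qualified by construction in both cases. The number of SDS-free-specific regions then ranged from 2001 to 6273 and that of SDS-specific regions from 2523 to 6503. The excess of CpG-rich sequence ranged from 5.98 (without SDS-free replicate 2) to 16.8 percentage points. The difference in calls by the unpurified libraries between the specific sets was 8.50 percentage points and ranged from −29.4 to 39.4, since regions that needed 1 call were called again less often. The difference in rank of promoters that were not CpG-rich ranged from −0.466 (without SDS replicate 1) to 2.18 points, that in peak width from −1 bp (without SDS-free replicate 1) to 60 bp, and that in summit distance across against within buffers from −1.5 to 3 bp; the cause was not tested. The rank of CpG-rich promoters stayed 4.26 to 6.53 points higher without SDS. The difference for regions over 10 kb away ranged from −4.39 (with a −log10 q of at least 5) to −3.04 points (without SDS-free replicate 2). Adding the unpurified libraries to the SDS-free group, an alternative chosen after the data were seen, left each of 8 differences in direction, with an exact p of 0.0667, the smallest for 4 libraries against 2, for lncRNA promoters and for the ranks of CpG-rich promoters and distal regions.

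Libraries of the 2 buffers share replicate numbers, but the labels do not say that a number marks a shared batch. The deviations of same-numbered libraries over 21568 shared regions correlated at 0.00504, so the number was not treated as pairing the samples. With the replicate number as a block, the differences stayed at 3.22 percentage points of CpG-rich peaks and 5.66 rank points of CpG-rich promoters, with a sign-flip permutation p of 0.5, the smallest that 2 pairs allow. Depth limits the specific regions, with median pileups of 14 to 16 reads against a lowest called pileup of 9 reads.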
